A study of Homo sapiens with 8 samples.

Results

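The genes described here encode the proteins of the cytosolic ribosome. They were chosen by symbol: RPL (large subunit) or RPS (small subunit) with a number and at most one of the suffixes A, X, L, AL or L1, together with RPLP0, RPLP1, RPLP2 and RPSA, and without pseudogenes, RPS6 kinases and Y-linked copies. RefSeq lists 85 such genes, of which 53 belong to the large and 32 to the small subunit. A total of 60 of them, 39 large and 21 small, were measured among 19752 genes. Another 15 were listed only on probe sets that name several genes, and 10 had no probe set under their name. The rule itself used no measured value, although it was chosen with earlier results of these data known.

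The expression profiles came from DLD-1, an epithelial colon cancer cell line. Cells received miR-143 duplex, a synthetic double-stranded copy of the mature microRNA, at 50 nM, or a mock transfection, with 4 biological replicates a group, and total RNA was taken after 24 h. Each replicate was hybridised to its own Affymetrix HG-U133 Plus 2.0 array, which reads a transcript with a set of short probes. The labels name no other treatment or genetic change in these cells and no control duplex for the mock cells, so the microRNA and the presence of a duplex cannot be told apart. Values are log2 signals after RMA, and a difference between groups is miR-143 minus mock on that scale. Of 9 colon epithelial markers, EPCAM had a mean of 13.60, KRT18 14.65 and CDH1 12.85, whereas VIL1 (7.60) and LGALS4 (7.12) lay near the array medians of 7.15 to 7.24. The 6 fibroblast markers lay between 6.43 and 8.14 and the 6 markers of blood and endothelium between 6.81 and 8.01.

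Ribosomal proteins are built into the large and the small subunit in one copy each, apart from the acidic stalk proteins, and the cell needs them in matched amounts. Their mRNAs are among the most abundant of a growing cell. Most start with a C followed by a run of pyrimidines, the terminal oligopyrimidine (TOP) tract, through which mTOR signalling and LARP1 set the translation and stability of the whole family together. Several subunits also have a paralog made from another gene, often with a restricted pattern of expression.

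The mature sequence of the transfected microRNA and the transcript starts of some members are shown because they identify the agent and the feature that the family shares. The microRNA (RefSeq, GRCh38.p14, chr5:149428978-149428998, plus strand) is given with its seed, bases 2 to 8, in capitals.
hsa-miR-143-3p: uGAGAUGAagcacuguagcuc

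For the members, 14 bases before and 16 bases from the annotated transcript start were read on the strand of the gene (RefSeq, GRCh38.p14). Capitals mark a tract that begins at the start itself with C and continues with at least 4 bases that are C or T. RPS6 (chr9:19380221-19380250, minus strand), RPL24 (chr3:101686703-101686732, minus), RPLP1 (chr15:69452804-69452833, plus), RPS3 (chr11:75399504-75399533, plus) and RPL39 (chrX:119791615-119791644, minus; its tract runs on past the window) are members at the top of the signal range.
RPS6: agcggaagttggccCTCTTTTCCgtggcgc
RPL24: tcccatgattctctCTTTCTTTTCgccatc
RPLP1: tataggcgcgagagCCCCTTTCCTCagctg
RPS3: cccgcgagccacttCCTTTCCTTTCagcgg
RPL39: tcttccgccagcttCCCTCCTCTTCCTTTC

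Paralogs are set beside their partners. RPL22 (chr1:6199580-6199609, minus) and RPL22L1 (chr3:170870180-170870209, minus) both carry a tract, whereas RPS27 (chr1:153990748-153990777, plus) carries one that RPS27L (chr15:63157462-63157491, minus) lacks. RPL26L1 (chr5:172958715-172958744, plus), RPL7L1 (chr6:42879602-42879631, plus) and RPL36AL (chr14:49620611-49620640, minus) hold no match at the annotated start.
RPL22: agttcgctcacctcCCTTTCTaactccgct
RPL22L1: gcggccgtagcttcCTCTCTgctctcgcgg
RPS27: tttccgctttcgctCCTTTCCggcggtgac
RPS27L: agttgatgccgagcgcagatcgcttgcagc
RPL26L1: gtcttccaggggtcggcgaacgaaacgcgg
RPL7L1: ggaagtgcggcgccgtagctaggagcggac
RPL36AL: tgtttcttccctttcctgttaggcgagagc

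The tract was found at the annotated start of 35 of the 52 measured members with a promoter sequence (67.3%) and of 47 of all 68 members of the rule with one (69.1%), against 988 of 15842 protein-coding genes (6.24%). Among 6 paralogs named with L it was found in RPL22L1, and among the other 46 members in 34 (73.9%). A match describes letters at one annotated start and not the start used in these cells.

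The ribosomal protein genes gave some of the strongest signals on the arrays. Of the 67 genes with a mean above 14, 37 were members, and of the 238 genes above 13, 50 were members. A total of 5 members (RPL10L, RPL36A, RPL39L, RPL3L and RPLP2) lay below 8.5, and the remaining 5 between these ranges. Levels of different genes were read by different probes and were not ranked as amounts of RNA.

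After miR-143 transfection no ribosomal protein gene passed the test. In limma without pairs, 0 of the 60 members had an adjusted p under 0.05, and 0 had an unadjusted p under 0.05, with all adjusted p-values at 0.9999. Over all genes this test called 0.0% lower and 0.0% higher. When arrays with the same replicate number were treated as pairs, limma called 123 of all 19752 genes lower (0.623%) and 33 higher (0.167%), and still 0 of the members, the lowest adjusted p among them being 0.142. At an unadjusted p under 0.05 the paired comparison had 10 members lower (16.7%), against 6.92% of all genes, and 0 higher, against 2.64%. That count was not kept under another scaling: 1 member was lower after quantile normalization (1.67%, against 4.24% of all genes) and 2 after cyclic loess (3.33%, against 4.29%). The 1 was RPL27A, and the 2 were RPL27A and RPL7L1.

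Small negative differences were nevertheless found along nearly the whole family. The log2 fold change was negative for 56 of 60 members, with a median of -0.094, whereas it was negative for 55.6% of all genes, with a median of -0.0091. In 34 other genes of like level, described below, it was negative for 32, with a median of -0.084. The median was -0.098 for the large subunit (35 of 39 negative) and -0.083 for the small subunit (21 of 21 negative). For the 50 members above 13 the values ran from -0.127 to -0.039, all negative. The members' standard error had a median of 0.147 without pairs, which is larger than the size of their median difference, and of 0.052 with pairs, which is smaller. With pairs the 95% interval of 10 members left out 0, before adjustment for the number of genes, and without pairs every member's interval spanned 0. Over the members, however, the deviations of numbers 1 to 3 from their group means correlated better with another number than with their own. No member had all 4 miR-143 arrays below or above the 4 mock arrays, a pattern seen in 1.24% and 0.719% of all genes. For members above 13, the 95% intervals reached from -0.574 to 0.484 without pairs and from -0.296 to 0.164 with pairs.

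The members moved together from array to array, and replicate 4 differed more from the other replicates than the groups differed from each other. The median level of the 60 members was 13.97, 14.01, 13.98 and 14.44 in miR-143 replicates 1 to 4. In mock replicates 1 to 4 it was 14.01, 14.02, 14.15 and 14.59. Replicate 4 was the highest array of both groups, and the groups overlapped. It was the highest array of both groups for 55 of the 60 members. Relative to the mean of the other 3 replicates, the members of replicate 4 were higher by a median of 0.429 in the miR-143 group and 0.520 in the mock group. In the 34 other genes of like level these medians were 0.425 and 0.498, so the shift was not particular to the family.

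**Figure D1:**
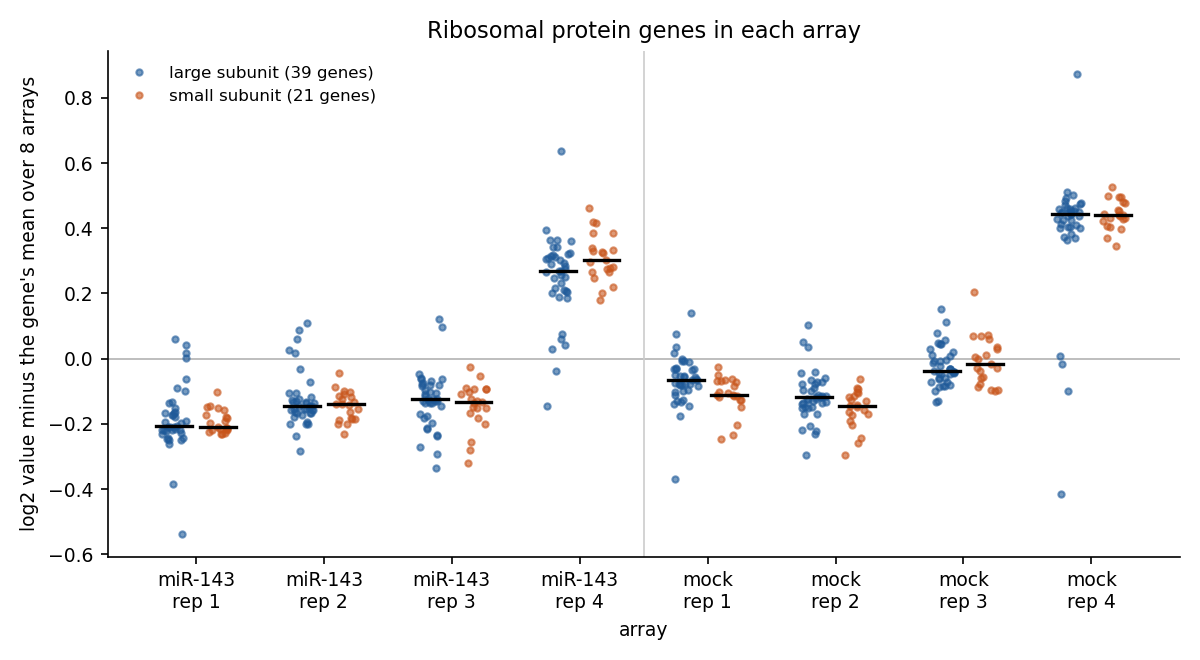
Deviation of each ribosomal protein gene from its own mean over the 8 arrays (y axis, log2) in each array (x axis), with 39 large subunit genes in blue, 21 small subunit genes in orange and black bars for medians. Replicate 4 of both groups stands above the other arrays, with member medians of 0.28 (miR-143) and 0.44 (mock), and both subunits lie at much the same height in each array.

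Both subunits followed the same course. In replicate 4 the median deviation from the gene means was 0.270 for the large and 0.301 for the small subunit with miR-143, and 0.444 and 0.439 with mock. In replicate 1 it was -0.205 and -0.211 with miR-143 and -0.064 and -0.112 with mock. Each array was then centred on its own median over the members, which by construction removes a shift that they share. For the 50 members above 13 the median SD over the 8 arrays was 0.241 before and 0.054 after centring. Genes outside the family were not centred for comparison. RPS3, which sits at the entry of the mRNA channel, had an SD of 0.020 after centring, and its centred difference between groups was 0.016. Its level lay close to the members' median in each array, so centring on that median leaves it little spread by construction.

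The whole arrays differed as well. The SD over all probe sets was 1.49 and 1.51 in the arrays of replicate 4 and 1.34 to 1.41 in the other arrays, and the 99th percentile was 12.999 and 13.12 against 12.56 to 12.74. The shift ran along the level of signal in genes outside the family too. Among other genes, replicate 4 differed from the remaining replicates by a median of -0.076 at mean levels of 7 to 8, by 0.281 at 10 to 11, by 0.409 at 13 to 14 and by 0.496 at 14 to 16. What made the arrays of replicate 4 differ was not tested.

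The negative difference between miR-143 and mock also ran along the level of signal, and was of much the same size in the ranges above 12. In genes outside the family the median log2 fold change was 0.0051 at levels of 7 to 8, with 46.3% negative. It was -0.049 at 10 to 11, with 71.0% negative, and -0.0685 at 11 to 12, with 81.6% negative. At 12 to 13 it was -0.084, with 91.8% negative, and at 13 to 14 it was -0.083, with 94.3% negative. At 14 to 16 all 30 other genes were negative, with a median of -0.082. To compare like with like, 34 other genes whose mean fell within the interquartile range of the members' levels (13.82 to 14.48) were set beside them. Their median log2 fold change was -0.084 and 32 of 34 were negative. Without the 4 of them that serve translation (listed with the TOP genes below), 28 of 30 were negative with a median of -0.085. At an unadjusted p under 0.05 with pairs, 8 of these 34 genes were lower (23.5%), and 10 of the 60 members (16.7%). After quantile normalization or cyclic loess 0 of the 34 were lower in that comparison and 1 was higher.

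**Figure D2:**
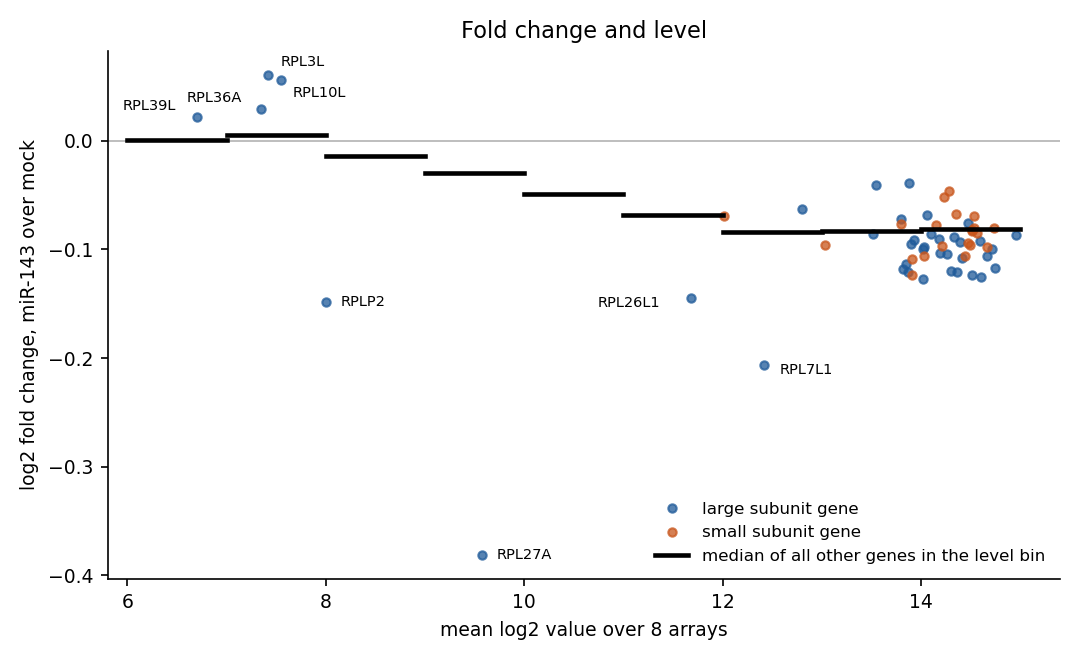
Log2 fold change of each ribosomal protein gene (y axis, miR-143 over mock) against its mean log2 level over 8 arrays (x axis), with black bars for the median of all other genes within each level range. The bars go from 0.0051 at levels of 7 to 8 to -0.082 above 14, and most members lie around them, with RPL27A, RPL7L1, RPLP2 and RPL26L1 below.

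Pair by pair, the family was not lower throughout. The median difference of the members was -0.120 in pair 1, -0.010 in pair 2, -0.095 in pair 3 and -0.149 in pair 4. In pair 2 only 35 of 60 members were lower, against 51 in pair 1, 54 in pair 3 and 55 in pair 4. The 34 other bright genes had medians of -0.115, -0.030, -0.058 and -0.146. A total of 31 members were lower in all 4 pairs (51.7%, with 21 of the large and 10 of the small subunit), against 10.9% of all genes and 18 of the 34 bright genes (52.9%). RPL10L and RPL39L were higher in all 4 pairs, a pattern of 6.54% of all genes.

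**Figure D3:**
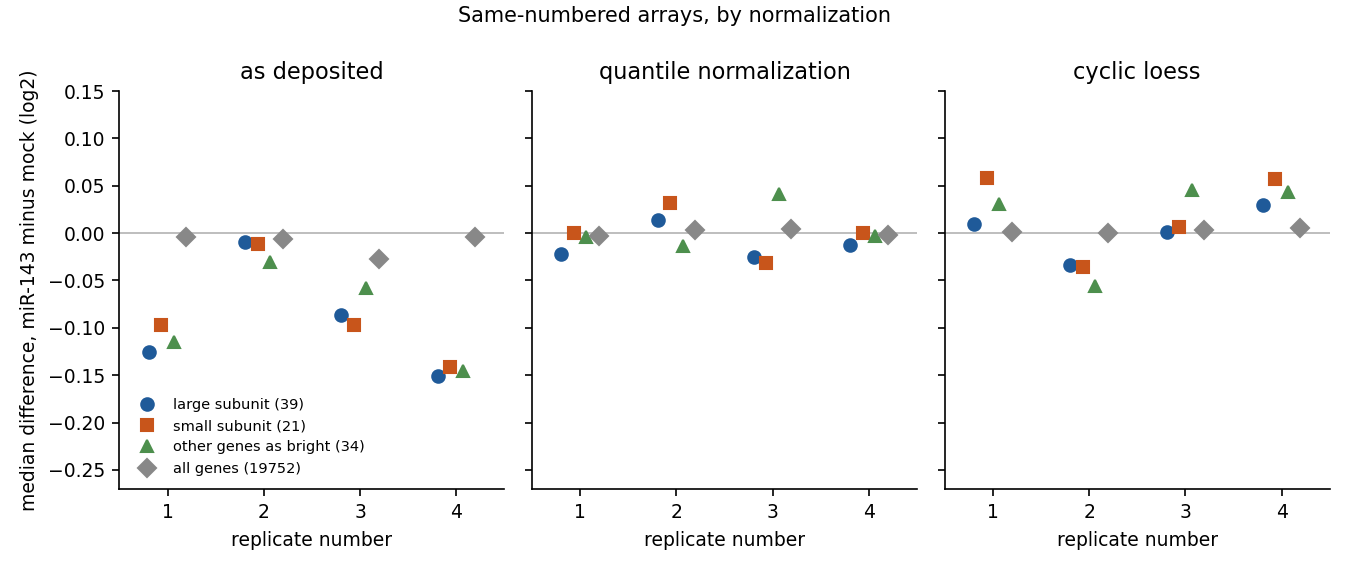
Median difference between the miR-143 and the mock array with the same replicate number (y axis, log2) for pairs 1 to 4 (x axis), for large subunit genes, small subunit genes, 34 other genes as bright and all 19752 genes, as deposited and after quantile or cyclic loess normalization. As deposited the family and the bright genes lie between -0.151 and -0.0094, and after either normalization all medians lie between -0.056 and 0.059. After quantile normalization the family and the bright genes lie on opposite sides of 0 in pairs 2 and 3 only. Large, small and bright medians are 0.014, 0.032 and -0.013 in pair 2 and -0.025, -0.032 and 0.041 in pair 3.

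The family's median depended on how the arrays were brought to one scale. When the deposited values were quantile normalized over the 8 arrays, the median of the members was -0.0020 and 35 of 60 were negative. After cyclic loess it was 0.011, and 20 of 60 were negative. Neither normalization brought a member past the test, with or without pairs. Members make up 55.2% of the genes above 14, so at that end of the scale both normalizations are set in part by the family itself. Leaving out mock replicate 4 gave a median of 0.035 with 9 negative, leaving out miR-143 replicate 4 gave -0.208 with 56 negative, and leaving out replicate 4 of both groups gave -0.078 with 57 negative.

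The lowest p of the paired comparison was that of RPL7L1, a paralog of RPL7 that takes part in the assembly of the large subunit. It read 12.33, 12.18, 12.15 and 12.61 in miR-143 replicates 1 to 4. The mock replicates read 12.41, 12.46, 12.34 and 12.89. The groups overlapped, but the miR-143 array was the lower one in each of the 4 pairs, with differences of -0.283 to -0.084. The log2 fold change was -0.21, with an adjusted p of 0.9999 in limma without pairs, and of 0.142 with pairs (SE 0.053). After quantile normalization it was -0.12, and the adjusted p with pairs was 0.632. Without mock replicate 4 it was -0.084, and without miR-143 replicate 4 it was -0.30. Its partner RPL7, a core protein of the large subunit, had -0.092 (adjusted p 0.644 with pairs, limma) and -0.0005 after quantile normalization.

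RPL26L1, the paralog of RPL26, gave the third lowest p of the paired comparison. It read 11.53, 11.51, 11.49 and 11.92 with miR-143. With mock it read 11.65, 11.61, 11.68 and 12.09. Each miR-143 array was below its mock partner, with differences of -0.193 to -0.093, whereas miR-143 replicate 4 exceeded mock replicates 1 to 3. The log2 fold change was -0.14, with an adjusted p of 0.315 with pairs (SE 0.048, limma), and -0.073 after quantile normalization. Without mock replicate 4 it was -0.034, and without miR-143 replicate 4 it was -0.25.

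RPL27A, a protein of the large subunit, had the largest negative value, and its probe sets differed. The single-gene probe set read 9.04, 9.54, 9.34 and 9.62 with miR-143. It read 9.71, 9.45, 9.44 and 10.45 with mock. The differences of pairs 1 to 4 were -0.68, 0.092, -0.11 and -0.83. The log2 fold change was -0.38 (adjusted p 0.297 with pairs, limma; SE 0.125), and -0.15 when mock replicate 4 was left out. A probe set that the annotation lists for RPL27A and the snoRNA hosted in its intron had a mean of 14.58 and differed by -0.088, and another by 0.0003 at a mean of 9.70.

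The stalk proteins RPLP1 and RPLP2 recruit the translation factors that hydrolyse GTP. RPLP1 read 14.10, 14.06, 14.05 and 14.63 with miR-143 and 14.12, 14.10, 14.31 and 14.74 with mock. Its log2 fold change was -0.10 (SE 0.055 and adjusted p 0.599 with pairs, limma). For RPLP2 the single-gene probe set was dim and read 7.61, 8.09, 7.92 and 8.08 with miR-143 and 8.07, 7.93, 7.87 and 8.43 with mock, a difference of -0.15 (adjusted p 0.669 with pairs). The signs of its pairs differed, with pairs 2 and 3 higher by 0.16 and 0.058. A brighter probe set listed for RPLP2 and its snoRNA, at a mean of 14.12, differed by -0.070.

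RPS6, the small subunit protein phosphorylated by S6 kinase downstream of mTOR, showed what a bright member looked like. It read 14.45, 14.56, 14.52 and 14.95 with miR-143. With mock it read 14.60, 14.61, 14.57 and 15.09. Each pair was lower, with differences of -0.147 to -0.045, and replicate 4 of both groups stood above all others. The log2 fold change was -0.098 (95% interval -0.412 to 0.217 without pairs and -0.205 to 0.010 with pairs), -0.013 after quantile normalization and 0.027 without mock replicate 4. Its other bright probe sets differed by -0.114 and -0.090, and a probe set at a mean of 6.68 by 0.18.

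RPL24 and RPL35A, of the large subunit, were among the 6 members of lowest p with a negative value in limma without pairs. RPL24 read 14.37, 14.47, 14.51 and 14.81 with miR-143 and 14.59, 14.54, 14.56 and 14.98 with mock. Its log2 fold change was -0.13 (adjusted p 0.454 with pairs, limma), lower in all 4 pairs, -0.024 after quantile normalization and -0.022 without mock replicate 4. The other probe set of RPL24, at a mean of 14.05, differed by -0.070. RPL35A read 13.76, 13.89, 13.95 and 14.24 with miR-143 and 13.96, 13.88, 14.05 and 14.47 with mock, a difference of -0.13 (adjusted p 0.489 with pairs). It was lower in pairs 1, 3 and 4, higher by 0.018 in pair 2, and without mock replicate 4 the difference was -0.0001. Another bright probe set of RPL35A, at a mean of 13.95, differed by -0.061. A probe set at 9.42 differed by -0.129, and those at 7.76 and 6.79 by 0.0645 and 0.0053. For RPL3, of the core of the large subunit, the log2 fold change was -0.12 (adjusted p 0.532 with pairs), and 4 probe sets listed with its snoRNAs, at means of 13.35 to 14.14, gave -0.111 to -0.095.

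Members with a role outside the ribosome or in ribosome assembly gave values in the same range. RPL11, which binds MDM2 when ribosome assembly is disturbed, differed by -0.068 (adjusted p 0.782 with pairs, limma), with 13.89 to 14.35 in the miR-143 arrays and 13.83 to 14.57 in the mock arrays. RPS14 differed by -0.047 and RPS19, needed for maturation of the small subunit, by -0.096. RPS3 differed by -0.078, with 3 miR-143 arrays at 14.001 to 14.013 and the highest at 14.42. All 4 had overlapping groups and differed by between -0.015 and 0.025 after quantile normalization. Of the 16 genes listed for Diamond-Blackfan anaemia, an inherited failure of red cell formation, 11 were measured, with 11 negative (median -0.093), and 7 negative after quantile normalization. The 6 measured of 8 proteins around the exit of the nascent chain tunnel were all negative, with a median of -0.091, and 3 were negative after quantile normalization. As deposited, 94.3% of genes outside the family were negative at levels of 13 to 14 and 100% at 14 to 16.

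Paralogs were compared with their partners within each pair of genes. Whether a probe set of one gene also read its partner was not examined. RPL22, which also binds viral and cellular RNA, differed by -0.091 and RPL22L1 by -0.11 (adjusted p 0.628 and 0.576 with pairs, limma). A dimmer probe set of RPL22, at a mean of 11.57, differed by -0.232, and its remaining probe sets by -0.113 to -0.091. RPL22L1 read 13.67, 13.78, 13.67 and 14.06 with miR-143 and 13.82, 13.71, 13.84 and 14.26 with mock. RPS27 differed by -0.052 and RPS27L, a p53 target, by -0.069, whereas RPL36AL differed by -0.063. The tissue-restricted paralogs RPL3L of heart and skeletal muscle, RPL10L of the testis and RPL39L had means of 7.42, 7.55 and 6.71, near the array medians. Their differences were 0.061, 0.056 and 0.022. RPL39 itself, at a mean of 14.48, differed by -0.076. RPL36A, with 0.030 at a mean of 7.34, was read by a dim probe set, and the probe set listed for it and its read-through transcript, at a mean of 13.75, differed by -0.077. These 4 were the only members with positive values, and all 4 lay below 8.5.

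**Figure D4:**
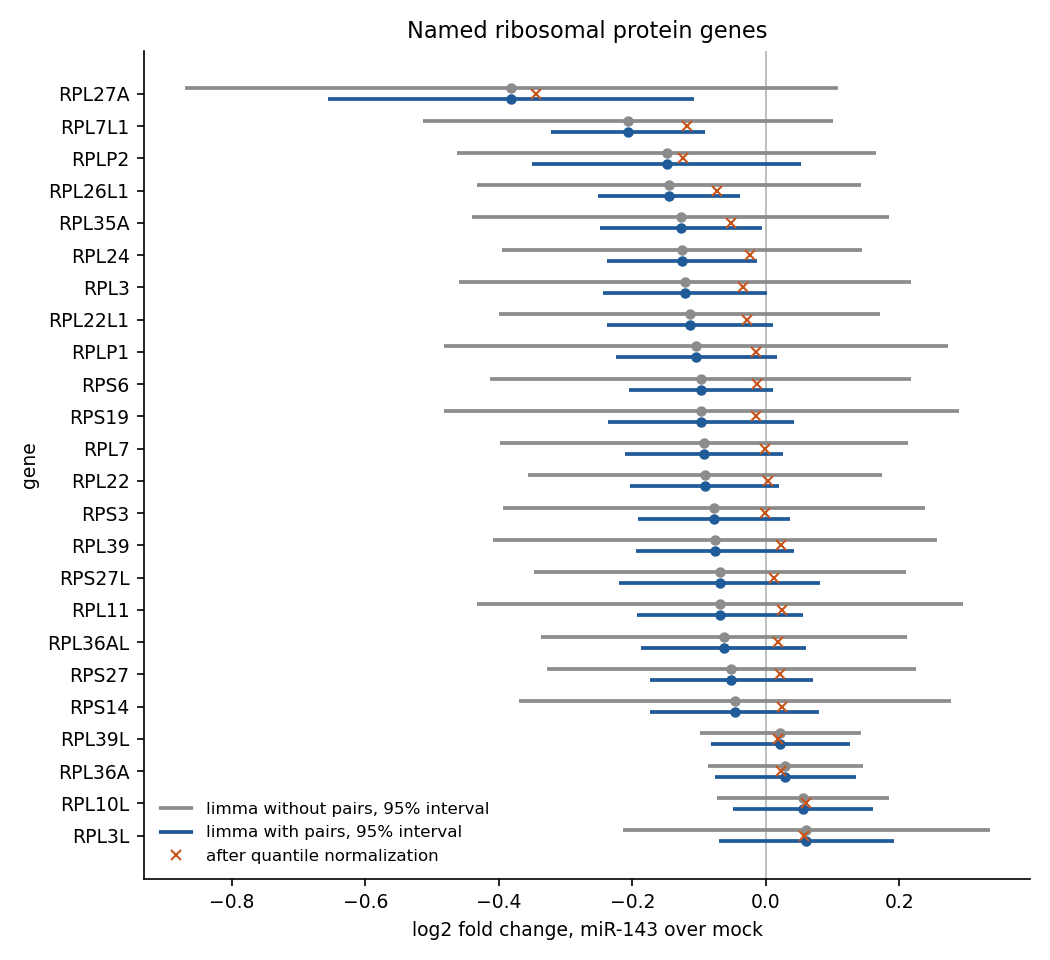
Log2 fold change of 24 named ribosomal protein genes (x axis, miR-143 over mock) with 95% intervals of limma without pairs (grey) and with pairs (blue), and the value after quantile normalization (orange crosses). Intervals are not adjusted for the number of genes. All grey intervals span 0, and the crosses of most bright genes lie close to 0, whereas RPL27A stays at -0.34 and RPL7L1 at -0.12.

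The share of negative probe sets also differed above and below a mean of 8.5. The 60 members were read by 121 single-gene probe sets, and 34 members had more than 1. Single-gene means that the annotation lists 1 symbol, and whether the probes also read similar sequences of other genes was not examined. All 76 probe sets with a mean above 11 were negative, as were the 12 between 8.5 and 11, whereas 19 of the 33 below 8.5 were. The 12 differed by -0.381 to -0.0525. Genes outside the family had medians of -0.014 at levels of 8 to 9, -0.029 at 9 to 10 and -0.049 at 10 to 11. Of them 58.0%, 63.1% and 71.0% were negative. Of the 34 genes with several probe sets, 26 had one sign, and in each of the other 8 at least 1 probe set lay below 8.5. A further 12 genes of the rule could be read through probe sets listed with a hosted non-coding gene. All 12 were negative (median -0.090, lowest adjusted p 0.257 with pairs, limma), and with them 68 of 72 genes were.

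**Figure D5:**
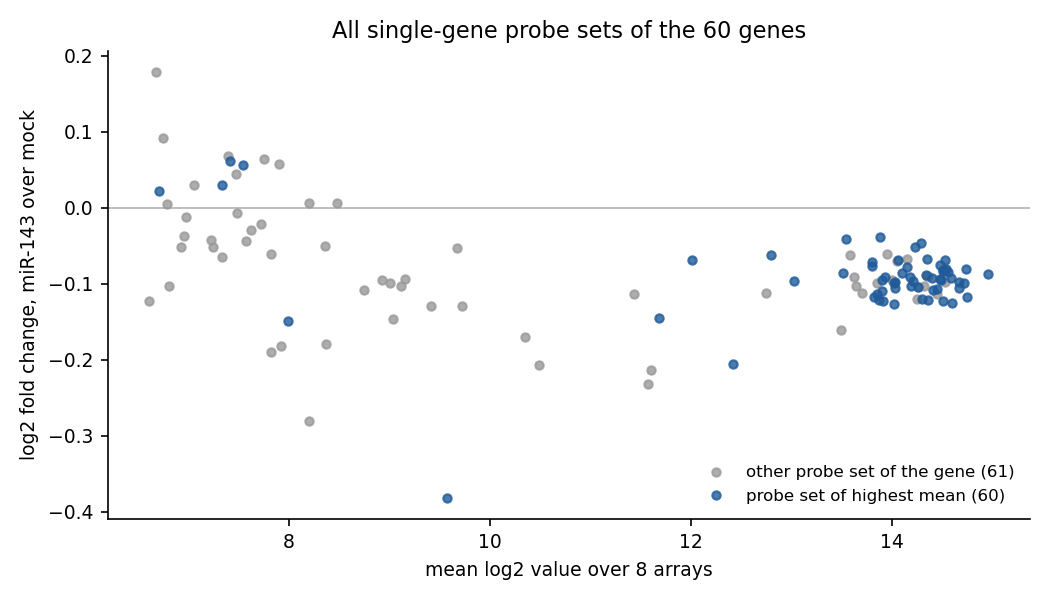
Log2 fold change (y axis, miR-143 over mock) against mean log2 level (x axis) of the 121 single-gene probe sets of the 60 genes, with the probe set used for each gene in blue. All 88 probe sets above 8.5 lie below 0, and those below 8.5 scatter to both sides.

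Members with and without the tract at the annotated start did not separate. The median log2 fold change was -0.091 in the 35 with a tract and -0.098 in the 17 without, and -0.0015 and -0.010 after quantile normalization.

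Genes that make, carry or control the family were described from fixed lists, and none passed the test in either comparison of limma. FAU, which encodes a small subunit protein fused to a ubiquitin-like part, differed by -0.092 and was the 1 measured of 2 such genes. Of 19 other TOP and translation genes, 16 were measured and 16 were negative (median -0.069), among them EEF1A1, which brings aminoacyl-tRNA to the ribosome, with -0.094, PABPC1, the poly(A) binding protein, with -0.078, and EIF4B, an initiation factor, with -0.17 (adjusted p 0.249 with pairs). After quantile normalization their median was 0.017, with 6 negative. The 11 dedicated chaperones and assembly factors of ribosomal proteins were all negative (median -0.051), with BCCIP, which escorts RPL23, at -0.21 (adjusted p 0.214 with pairs). After quantile normalization 6 of them were negative. As deposited, 55.6% of all genes were negative, and the share rose with level. The chaperones lay at 8.34 to 11.98, where other genes were 58.0% (8 to 9) to 81.6% (11 to 12) negative. The TOP and translation genes lay at 11.56 to 14.75, where the share was 81.6% (11 to 12) to 100% (14 to 16).

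The 9 regulators had a median of -0.0002, with 5 negative. MYC, which drives transcription of ribosomal protein genes, had the lowest p of these lists, with -0.24 (adjusted p 0.072 with pairs, limma) and -0.17 after quantile normalization. LARP1, which binds the TOP tract, differed by -0.085. MTOR differed by 0.024 and RPS6KB1, the S6 kinase, by -0.0002. EIF4EBP2, a repressor of cap-dependent translation, differed by 0.12 (adjusted p 0.496 with pairs).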

How the data were processed

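RNA of 8 DLD-1 cultures was hybridised to Affymetrix HG-U133 Plus 2.0 arrays, 4 of miR-143 and 4 of mock. The deposited values are log2 signals per probe set that the authors made with RMA, which the submitters' processing notes name together with the affy package, with no version. They were used as deposited. Precision is limited by having 4 arrays a group.

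Of 54675 probe sets, 41091 carried 1 gene symbol, 1801 several, 11721 none, and 62 were controls. Symbols were updated through Entrez identifiers of RefSeq (GRCh38.p14). The probe set of highest mean over all arrays stood for each of 19752 genes. R 4.3.3 with limma 3.58.1 compared the groups by two-sided moderated tests (lmFit, eBayes). Benjamini-Hochberg adjustment ran over the 19752 genes at a threshold of 0.05. For each member an exact permutation of the arrays was added, whose smallest possible p is 0.029, and the lowest p found was 0.20. Python 3.11.15 with numpy 2.4.6, pandas 2.3.3 and matplotlib 3.10.9 made the tables and figures. The fit was tested on simulated data whose planted changes were larger than the members' median difference. They held no shift between groups along the level of signal, so that test does not cover differences of the members' size.

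The study's methods name no pairs. Replicate numbers were taken as pairs if, for each number, both arrays' deviations from their group means had a correlation over 0.1. Over all genes the correlations were 0.11, 0.17, 0.58 and 0.81, the first close to the limit, so both comparisons are given. The highest correlation of numbers 1 to 4 with another number was 0.25, 0.54, 0.49 and -0.31, so numbers 1 and 2 matched another number better than their own. Over the members the correlations were 0.08, 0.28, -0.16 and 0.80, and the highest with another number were 0.56, 0.80, 0.75 and -0.05.

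The alternatives were leaving out each array or pair, the mean of a gene's probe sets, cyclic loess, array weights, an intensity trend and a filter on low levels. Quantile normalization, leaving out replicate 4 of both groups, and probe sets shared with hosted non-coding genes were added after seeing the data. The 24 named members were the 6 lower and 6 higher of lowest p (only 4 were higher), members with a known role and paralog pairs. The members and the lists were chosen with earlier results of these data known.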

Additional observations from a re-analysis of the deposited data

Results flagged for a closer look

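Named members and the family medians were examined for an array far from the other 3 of its group (Dixon's gap over range, against its 95% critical value for 4 arrays). Of 54 groups, 14 exceeded it, 9 with miR-143 and 5 with mock, where chance gives about 1 in 20, and the genes are not independent of each other. In all 14 the distant array was the highest and was replicate 4. With miR-143 the ratio was 0.895 for RPL26L1, 0.915 for RPLP1, 0.866 for RPL11, 0.969 for RPS3, 0.846 for RPS19 and 0.901 for RPL3. It was 0.915 for the median of all members, 0.852 for the large and 0.877 for the small subunit. With mock it was 0.847 for RPL26L1, 0.877 for RPL24, 0.937 for RPS6, 0.877 for RPL39 and 0.837 for RPL7. What set replicate 4 apart was not tested.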

How the results depend on the processing

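No member passed the adjusted threshold under any alternative run. The median of the members lay between -0.208 and 0.035 when each array was left out in turn, with 9 to 56 negative, positive without mock replicate 4 alone. For the large subunit this range was -0.211 to 0.030 and for the small subunit -0.203 to 0.051. After cyclic loess the medians were 0.011 (members), 0.0044 (large) and 0.022 (small), with 20 negative, and the same with the replicate block. Quantile normalization left 35 members negative with or without the replicate block, and turned the small subunit's median to 0.0010. The replicate block itself changed no call of a member, but moved the members lower at an unadjusted p under 0.05 from 0 to 10. That count with the replicate block was 2, 19, 4 and 4 without pairs 1 to 4 (all genes 5.21%, 8.79%, 4.74% and 5.21%), 23 with the mean of all probe sets (6.87%), 4 of 56 among genes above the median level (9.67%), 2 after cyclic loess (4.29%) and 1 after quantile normalization (4.24%). Of the 24 named members, 14 changed sign without mock replicate 4, 11 after cyclic loess and 7 after quantile normalization. Over all genes limma without pairs called 0 lower and 0 higher as deposited, 31 and 21 after cyclic loess, 32 and 22 after quantile normalization, 36 and 20 with array weights, and 30 and 13 without replicate 4 of both groups. The causes of these shifts were not tested.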
